A study of Mus musculus with 3 samples.

Results

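Troponin is the calcium switch of striated muscle, and its 8 subunit genes were followed here in satellite cells, the stem cells that sit on muscle fibres and repair them. The genes were chosen by symbol: Tnnt1, Tnnt2 and Tnnt3 encode troponin T, Tnni1, Tnni2 and Tnni3 encode troponin I, and Tnnc1 and Tnnc2 encode troponin C. All 8 had a row among the 20308 genes of the deposited table. The cells came from Pax7-ZsGreen mice aged 3 months, a strain in which a green fluorescent protein reports Pax7, the transcription factor that marks satellite cells, and were sorted for ZsGreen after enzymatic digestion of the muscle. Hindlimb muscle of several animals of like age was used, while the tissue field of the labels reads tibialis anterior, a single muscle of the shin. The 3 libraries (replicates 1, 2 and 3) form 1 group, so no treatment, genotype or fibre sample stands beside them. Values are TPM, in which each gene's share of the RNA is corrected for its length, so levels of different genes can be set side by side. No label tells if each library had animals of its own, so the spread among these 3 samples may be technical. The p-values measure no more than this spread, and those of limma also draw on the spread of other genes of like level.

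Each troponin complex holds 1 subunit of each kind. Troponin C binds calcium, troponin I holds the actin filament in its inhibited state, and troponin T ties the complex to tropomyosin. Slow fibres use the products of Tnnt1, Tnni1 and Tnnc1, and fast fibres use those of Tnnt3, Tnni2 and Tnnc2. The heart uses Tnnt2 and Tnni3 together with Tnnc1, which it shares with slow muscle, and Tnnt2 and Tnni1 are also known from developing skeletal muscle. The complex belongs to the differentiated muscle cell, and satellite cells carry no sarcomeres.

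The sorted cells carried the markers of satellite cells: all 12 listed markers lay above 1 TPM, among them Myod1 at 1240 ± 74.5 TPM and Pax7 at 56.8, 46.4 and 51.1 TPM in replicates 1, 2 and 3. Markers of other cells were read the same way. Of the listed markers, 4 of 12 for mature fibres, 6 of 8 for fibro-adipogenic cells, 7 of 7 for endothelium, 4 of 7 for leukocytes, 4 of 7 for pericytes and smooth muscle and 2 of 6 for erythroid cells lay above 1 TPM (limma, Benjamini-Hochberg), beside 60.8% of all genes tested. The share among tested markers was under or near that background for mature fibres (36.4%), pericytes and smooth muscle (57.1%), leukocytes (66.7%) and erythroid cells (66.7%). It was higher for fibro-adipogenic cells (75%), and for endothelium it was 100%, as for satellite cells. By mean, the highest marker was Sdc4 for satellite cells (4135 TPM), Fabp4 for endothelium (1898 TPM) and Gsn for fibro-adipogenic cells (888 TPM). It was Hba-a2 for erythroid cells (193 TPM), Cd74 for leukocytes (153 TPM), Tpm2 for mature fibres (133 TPM) and Acta2 for pericytes and smooth muscle (95.0 TPM). In bulk RNA, fewer cells of a type and less RNA per cell cannot be told apart. Each library listed between 9106 and 9599 genes at 0, and a 0 in these files can be a failed estimate, so such values are given as listed at 0. Read totals are not kept by TPM, so the depth behind each value is unknown.

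The troponin T, I and C genes resemble their relatives without sharing long identical stretches. Over the aligned coding bases of the longest coding transcripts, Tnnt1 and Tnnt3 were 71.7% identical, Tnni1 and Tnni2 72.1%, and Tnnc1 and Tnnc2 71.2%. The longest identical runs between the slow and the fast gene of each kind, all in coding sequence, are given from GENCODE M21 transcripts. They show how long an exact match between the transcripts compared can be. Matches with differing bases were not examined.
Tnnt1 and Tnnt3: aggaggaagcccccga
Tnni1 and Tnni2: ctgggctctaagcacaaggtgt
Tnnc1 and Tnnc2: tgagttcaaggctgcctttga

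These runs were 16 bases long for troponin T, 22 bases for troponin I and 21 bases for troponin C. None of the 31-base words of any member's longest coding transcript occurred on the same strand in a transcript of another annotated gene. The overlap of Tnnc2 with a gene on the other strand is given with its values.

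Slow troponin T stood above the other subunits, by a margin that differed among the libraries. Tnnt1 (chr7:4504570-4516382, minus strand, GRCm38) was at 71.1, 140.2 and 205.2 TPM in replicates 1, 2 and 3. It was the highest troponin in every library and exceeded each of the other 7 members in 3 of 3 libraries. The next highest was Tnnc1 at 32.0 TPM in replicate 1, Tnni1 at 24.9 TPM in replicate 2 and Tnnc2 at 77.2 TPM in replicate 3. The mean of Tnnt1, 139 ± 67.0 TPM (SD, n = 3), ranked 1131 among 20308 genes. The level of Tnnt1 lay 6.85 above 1 TPM on the log2(TPM + 0.1) scale (standard error 0.241, limma adjusted p = 2.77e-09). The libraries disagreed on its size by 2.89-fold between the lowest and the highest. The SD of its log2 values was 0.77, against a median SD of 0.22 among the 1551 genes with means within 2-fold of it.

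**Figure D1:**
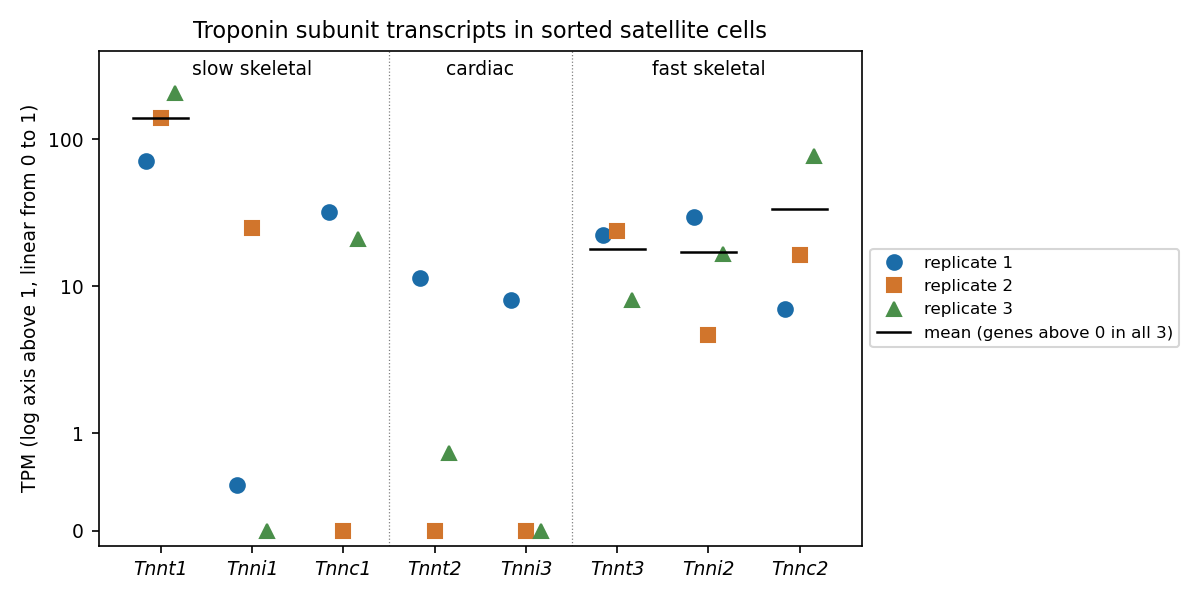
TPM of the 8 troponin genes, with 1 symbol per library and a bar for the mean of genes above 0 in all 3 libraries, on an axis that is linear from 0 to 1 and logarithmic above. Tnnt1 sits between 71.1 and 205.2 TPM, above the other members in every library, while Tnni1, Tnnc1, Tnnt2 and Tnni3 each have at least 1 library at 0.

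The other slow subunits did not share the level of Tnnt1. Slow troponin I, Tnni1 (chr1:135779434-135810989, plus strand), was at 0.47 TPM in replicate 1, at 24.9 TPM in replicate 2 and listed at 0 in replicate 3. Nearly all of its signal therefore came from 1 library, and its level was not decided against 1 TPM (limma adjusted p = 0.990). Tnnc1 (chr14:31208312-31211729, plus strand), the troponin C of slow and cardiac muscle, was at 32.0 TPM in replicate 1 and 20.96 TPM in replicate 3 and listed at 0 in replicate 2. Tnnc1 was not decided either (limma adjusted p = 0.330). It passed the threshold on replicates 1 and 3 alone, with the library that lists it at 0 left out (limma adjusted p = 3.06e-33). That p-value rests on few libraries and draws on the spread of other genes. With replicate 1 or replicate 3 left out instead, Tnnc1 was not decided (limma adjusted p = 0.898 and 0.795). Among the 3594 genes with means within 2-fold of that of Tnnc1, 5.15% were listed at 0 in at least 1 library. For Tnni1 the share was 17.6% of 3522 genes.

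The fast subunits formed a set that was present in every library at lower levels. Fast troponin T, Tnnt3 (chr7:142498836-142516009, plus strand), was at 22.2, 23.7 and 8.07 TPM in replicates 1, 2 and 3, with replicate 3 the low one. Its mean was 18.0 ± 8.62 TPM (SD, n = 3; limma adjusted p = 1.36e-05 against 1 TPM). Fast troponin I, Tnni2 (chr7:142441808-142444410, plus strand), was at 29.6, 4.68 and 16.5 TPM, with replicate 2 the low one. It averaged 16.9 ± 12.5 TPM (SD, n = 3; limma adjusted p = 0.000183). The low library was thus not the same for the fast T and the fast I subunit.

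Fast troponin C, Tnnc2 (chr2:164777161-164779967, minus strand), was at 7, 16.3 and 77.2 TPM in replicates 1, 2 and 3. Its libraries spanned 11.03-fold, the widest span among the 4 members above 0 in every library, and replicate 3 stood high. It averaged 33.5 ± 38.1 TPM (SD, n = 3; limma adjusted p = 7.68e-05), and the SD of its log2 values was 1.75, against a median SD of 0.41 among 3201 genes with means within 2-fold. Its value carries a limit of annotation. Of the 800 exon bases of Tnnc2, 592 (74.0%) also lie in an exon of Ube2c on the opposite strand, and 67.6% of the 31-base words of its longest coding transcript occur reversed in 1 of the 2 annotated transcripts of Ube2c. Ube2c encodes a ubiquitin-conjugating enzyme of mitosis and was at 18.1 TPM in replicate 1 and listed at 0 in replicates 2 and 3. The strand setting is not given in the sources used here, so reads of Tnnc2 and of this Ube2c transcript may not have been told apart.

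The cardiac subunits had little signal outside replicate 1. Tnnt2 (chr1:135836354-135852260, plus strand) was at 11.4 TPM in replicate 1, listed at 0 in replicate 2 and at 0.8 TPM in replicate 3. Tnni3 (chr7:4518305-4524229, minus strand) was at 7.99 TPM in replicate 1 and listed at 0 in replicates 2 and 3. Both had their highest value in replicate 1, and neither was decided against 1 TPM (limma adjusted p = 0.958 for Tnnt2 and 0.522 for Tnni3). Among genes with means within 2-fold, 41.6% of 2980 for Tnnt2 and 57.7% of 2579 for Tnni3 were listed at 0 in at least 1 library.

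In all, 4 of the 8 members (Tnnt1, Tnnt3, Tnni2 and Tnnc2) were above 1 TPM, against a background of 60.8% of the 12822 genes tested (7796 genes, limma, Benjamini-Hochberg adjusted p under 0.05). The other 4 were not decided: no member was called below 1 TPM by limma at an adjusted p under 0.05, against 2.18% of the genes tested (279 genes). That background rests on the settings, since 0 genes were called below 1 TPM when any 1 library was left out. No member lay below 1 TPM at an unadjusted limma p under 0.05 either, a limit for which no background share was computed. The 4 that were not decided were those listed at 0 in at least 1 library. Of all genes tested, 28.9% were listed at 0 in at least 1 library. On the log2(TPM + 0.1) scale a 0 widens the spread of a gene, so these traits are not independent. Ordered by the median of the 3 libraries, the levels ran from Tnnt1 (140.2 TPM) through Tnnt3 (22.2), Tnnc1 (20.96), Tnni2 (16.5) and Tnnc2 (16.3) to Tnnt2 (0.8), Tnni1 (0.47) and Tnni3 (0). Only the step between Tnnt1 and Tnnt3 kept its direction in 3 of 3 libraries, and the neighbours further down changed places between libraries.

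The slow, fast and cardiac forms of each subunit were then compared within each library, as 7 pairs on the log2(TPM + 0.1) scale. Slow Tnnt1 exceeded fast Tnnt3 by 3.21-fold, 5.91-fold and 25.4-fold in replicates 1, 2 and 3. The mean log2 ratio was 2.96 ± 1.53 (SD, n = 3; 7.79-fold), with an exact two-sided sign-flip permutation p = 0.25, the smallest that 3 libraries allow, and 0.438 after Benjamini-Hochberg adjustment over the 7 pairs. Tnnt1 also exceeded cardiac Tnnt2 in 3 of 3 libraries, by 6.24-fold in replicate 1 and 256-fold in replicate 3, with Tnnt2 listed at 0 in replicate 2. Cardiac Tnnt2 was below fast Tnnt3 in all 3 libraries, and cardiac Tnni3 was below fast Tnni2 in all 3 libraries; these pairs also gave the smallest possible exact p of 0.25.

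The slow and fast forms of troponin I and troponin C had no fixed order. Slow Tnni1 exceeded fast Tnni2 in 1 of 3 libraries, by 5.32-fold in replicate 2, and was lower in the other two (exact sign-flip permutation p = 0.5). Tnnc1 exceeded Tnnc2 in 1 of 3 libraries, by 4.57-fold in replicate 1. Tnnc1 was at 0.271 times the level of Tnnc2 in replicate 3 and listed at 0 in replicate 2 (exact sign-flip permutation p = 0.75). Slow Tnni1 exceeded cardiac Tnni3 in 1 of 3 libraries (exact sign-flip permutation p = 1.0). The 3 kinds of subunit therefore did not show 1 shared order of slow and fast forms.

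Summed by class, slow troponin exceeded fast troponin in each library, and Tnnt1 was the largest term in the slow sum. The slow class (Tnnt1, Tnni1, Tnnc1) summed to 103.6, 165.04 and 226 TPM in replicates 1, 2 and 3, the fast class (Tnnt3, Tnni2, Tnnc2) to 58.8, 44.8 and 101.8 TPM, and the cardiac pair (Tnnt2, Tnni3) to 19.4, 0 and 0.8 TPM. Without the troponin T genes, the slow pair (Tnni1, Tnnc1) summed to 32.5, 24.9 and 20.96 TPM and the fast pair (Tnni2, Tnnc2) to 36.6, 21.02 and 93.7 TPM. The slow pair was thus higher in replicate 2 and lower in replicates 1 and 3. Tnnt1 alone made up 39.1%, 66.8% and 62.4% of all troponin TPM in replicates 1, 2 and 3. By kind of subunit, troponin T held 66.9% ± 10.4 of the troponin TPM, troponin I 13.4% ± 7.99 and troponin C 19.7% ± 11.1 (SD, n = 3), although the proteins assemble in equal numbers.

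**Figure D2:**
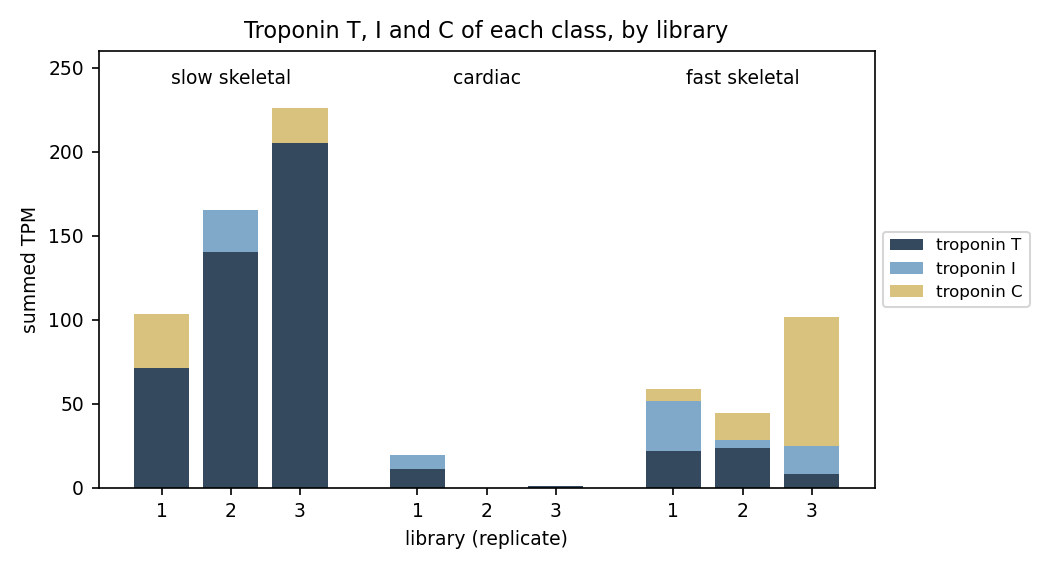
Summed TPM of the slow skeletal, cardiac and fast skeletal troponin genes in each of the 3 libraries, stacked by troponin T, I and C, with no error bars because each bar is 1 library. The slow bars reach 103.6 to 226 TPM and consist mostly of Tnnt1, the fast bars reach 44.8 to 101.8 TPM, and the cardiac bars stay at or under 19.4 TPM.

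Other slow and fast fibre genes were read beside the troponins. Among 12 slow fibre genes 3 passed 1 TPM, 50% of those tested, beside 60.8% of all genes tested. Of the 12, 6 had 0 in every library, beside 7486 of the 20308 genes in the table. The list median was 0.123 TPM, against a median of 11.5 TPM over all genes tested and 2.24 TPM over all genes in the table. The slow myosin Myh7 was at 0.38, 0.36 and 0 TPM and the slow myosin light chains Myl2 and Myl3 were listed at 0 throughout, while Tnnt1 was above 71 TPM in the same libraries. The 3 slow fibre genes above 1 TPM were Atp2a2, the calcium pump of slow muscle and of many other cells, at 460 ± 46.6 TPM, the myosin-binding protein Mybpc1 at 49.3 ± 4.13 TPM, and the calcium store protein Casq2 at 8.02, 1.89 and 7.91 TPM. Mb, the oxygen carrier myoglobin, was listed at 0 and at 9.38 and 19.1 TPM in replicates 1, 2 and 3. Myh7, Myl2, Myl3 and Casq2 were chosen after their values were seen.

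Among 12 fast fibre genes 4 passed 1 TPM, 36.4% of those tested, beside 60.8% of all genes tested, and 1 had 0 in every library (list median 6.12 TPM). The highest were alpha-actinin 3, Actn3, at 80.0 ± 14.6 TPM, the calcium pump Atp2a1 at 21.5 ± 5.15 TPM, and the fast myosin light chain Mylpf at 26.4, 7.45 and 0 TPM. Tnnt1 was above Atp2a1 in 3 of 3 libraries and above Actn3 in 2 of 3. By mean, the fast troponins lay at 16.9 to 33.5 TPM, on either side of Atp2a1 and below Actn3. Actn3 was above each of them in every library, except for Tnnc2 in replicate 3 (77.2 TPM, against 64.04 TPM for Actn3).

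**Figure D3:**
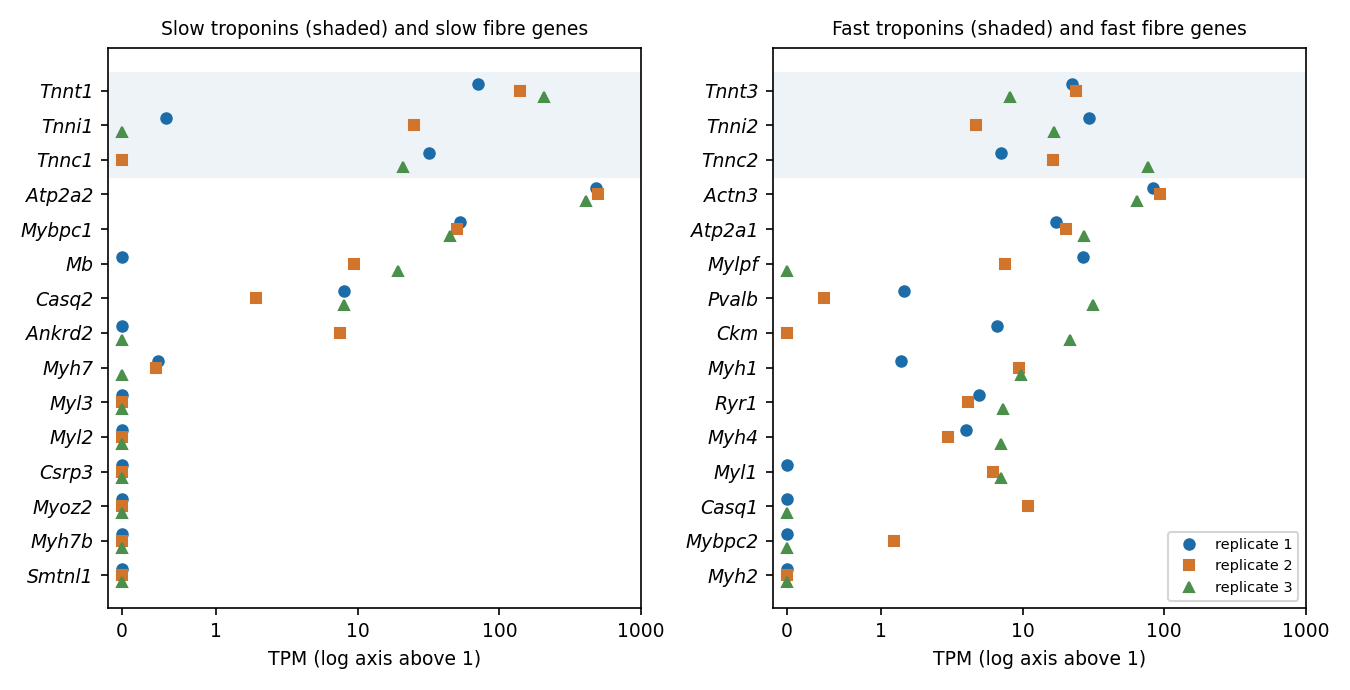
TPM in each of the 3 libraries for the slow troponins with 12 slow fibre genes (left) and the fast troponins with 12 fast fibre genes (right), on an axis that is logarithmic above 1. Tnnt1 lies at 71.1 to 205.2 TPM while Myh7, Myl2 and Myl3 lie at or under 0.38 TPM, and the fast troponins lie among the fast fibre genes.

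The summed level of the 12 mature fibre markers was 242, 128 and 314 TPM in replicates 1, 2 and 3, with the tropomyosin Tpm2 the highest of them in each library. Of these 12 genes, 11 also belong to the fibre lists or the thin filament list. Myh2 was listed at 0 in all 3 libraries, Ckm in replicate 2 and Mylpf in replicate 3, while skeletal actin, Acta1, was at 34.6, 17.2 and 34.02 TPM. The fast troponin sum was likewise lowest in replicate 2 and highest in replicate 3, where Tnnc2 held 77.2 of the 101.8 TPM. Its single genes did not share this order with each other: Tnnt3 was highest in replicate 2 and lowest in replicate 3, and Tnni2 was highest in replicate 1. Tnnt1 was lowest in replicate 1 and highest in replicate 3. The endothelial markers summed to 1908, 1556 and 2837 TPM and the erythroid markers to 315, 139 and 453 TPM. Both sums had the same order of libraries as that of the fibre markers. The endothelial sum was mostly Fabp4, at 1750, 1356 and 2587 TPM. Tek also had this order, while Pecam1, Cldn5, Kdr and Emcn were lowest in replicate 1 and Cdh5 in replicate 3. Among erythroid markers Hba-a2 had this order, while Hbb-bs was highest in replicate 1 and Hbb-bt in replicate 2. The part of fibre RNA in the troponin levels was not tested. Tnnt1 exceeded Acta1 by 2.05-fold, 8.16-fold and 6.03-fold in replicates 1, 2 and 3.

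The partners of troponin on the thin filament passed 1 TPM about as often as all genes tested. Among 12 such genes 6 passed, and 2 had 0 in every library (list median 4.52 TPM), so that 60% of the tested ones passed, beside 60.8% of all genes tested. The tropomyosins that troponin T binds were high: Tpm3 averaged 1813 ± 95.7 TPM, Tpm1 343 ± 33.6 TPM and Tpm2 133 ± 57.4 TPM (SD, n = 3). Tpm3 and Tpm1 were above all 8 troponins in each library, and Tpm2 was above the 7 other than Tnnt1. Tropomyosin genes also make forms used outside muscle, and the deposited values do not separate forms. Tnnt1 was above Tpm2 in 2 of 3 libraries.

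Genes of the differentiation step that switches on troponin genes, and regulators of fibre type, were measured as well. Among 11 differentiation genes 3 passed 1 TPM, 37.5% of those tested, beside 60.8% of all genes tested. Of the 11, 3 had 0 in every library (list median 1.36 TPM). Myog, the factor of terminal differentiation, was at 40.7, 52.6 and 9.19 TPM, below Tnnt1 in each library. The acetylcholine receptor subunit Chrna1 averaged 32.1 ± 8.19 TPM, and the embryonic myosin light chain Myl4 was at 0, 19.8 and 15.1 TPM. Among 13 fibre type regulators 10 passed 1 TPM, 76.9% of those tested (list median 26.04 TPM). The highest were the MADS-box factors Mef2d at 118 ± 7.93 TPM and Mef2a at 82.4 ± 22.3 TPM and the cofactor Vgll2 at 81.2 ± 16.7 TPM. Among 8 cardiac genes 6 had 0 in every library, with the cardiac myosin Myh6 among them, beside 7486 of the 20308 genes in the table. The developmental heart factors Tbx20, at 1.33, 0 and 0 TPM, and Gata4, at 0, 0 and 0.13 TPM, were the other two.

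Among 50 muscle genes of these lists, the profiles most like those of the troponins over the 3 libraries were found from log2 values centred on each gene's mean. Mef2a (root mean square difference 0.31) and Chrna1 (0.37) were nearest to Tnnt1. Eya1 (0.14) and Tead1 (0.27) were nearest to Tnnt3, Neb (0.28) and Casq2 (0.35) to Tnni2, and Ppargc1a (0.58) and Myh1 (0.91) to Tnnc2. Ppargc1a itself was at 0, 0 and 1.02 TPM. With 3 libraries this likeness is a description of which libraries were high, and many genes can share it.

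The troponin I and T genes lie in pairs on the chromosomes. Tnni3 and Tnnt1 lie 1922 bases apart on the minus strand of chromosome 7. Tnni1 and Tnnt2 lie 25364 bases apart on chromosome 1 with Lad1 between them, and Tnni2 and Tnnt3 lie 54425 bases apart on chromosome 7 with Lsp1 between them. In the closest pair the slow troponin T gene was at 71.1, 140.2 and 205.2 TPM and its cardiac troponin I neighbour at 7.99, 0 and 0 TPM, so the slow gene was higher in 3 of 3 libraries. The other pairs had no fixed order: Tnni2 exceeded Tnnt3 in 2 of 3 libraries, and Tnni1 exceeded Tnnt2 in 1 of 3. Of the genes between them, Lsp1, a cytoskeletal protein of leukocytes and endothelium, was at 68.1, 64.9 and 51.5 TPM, above both of its troponin neighbours in every library, and Lad1 was listed at 0 in all 3 libraries. On the other side of Tnnt1, Ppp1r12c was at 151, 152 and 174 TPM. Tnni3 shares 86 exon bases (4.17% of its exon bases) with Dnaaf3 on the same strand, and Dnaaf3 was at 0, 0 and 8.54 TPM.

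The remaining nearest genes also had levels of their own. Beside Tnnt2, Pkp1 was listed at 0 in all libraries, and beside Tnni1, Phlda3 was at 22.3, 6.27 and 5.03 TPM. Beside Tnni2, Syt8 was listed at 0 throughout. Beside Tnnt3, Mrpl23, a protein of the mitochondrial ribosome, was at 98.2, 32.0 and 45.6 TPM. Beside Tnni3, Syt5 was at 6.28, 0 and 0 TPM, with replicate 1 the one above 0 as for Tnni3. Tnnc1 overlaps Nisch on the opposite strand, with 0 exon bases in common, and Nisch was at 49.4, 51.6 and 65.4 TPM. The nearest genes that do not overlap Tnnc1 were Stab1 at 0.43, 0.55 and 2.88 TPM, 39670 bases away, and Sema3g at 0.23, 5.79 and 5.64 TPM. Beside Tnnc2, Dnttip1 was at 16.9, 23.8 and 22.7 TPM and Snx21 at 3.38, 0.82 and 4.41 TPM.

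**Figure D4:**
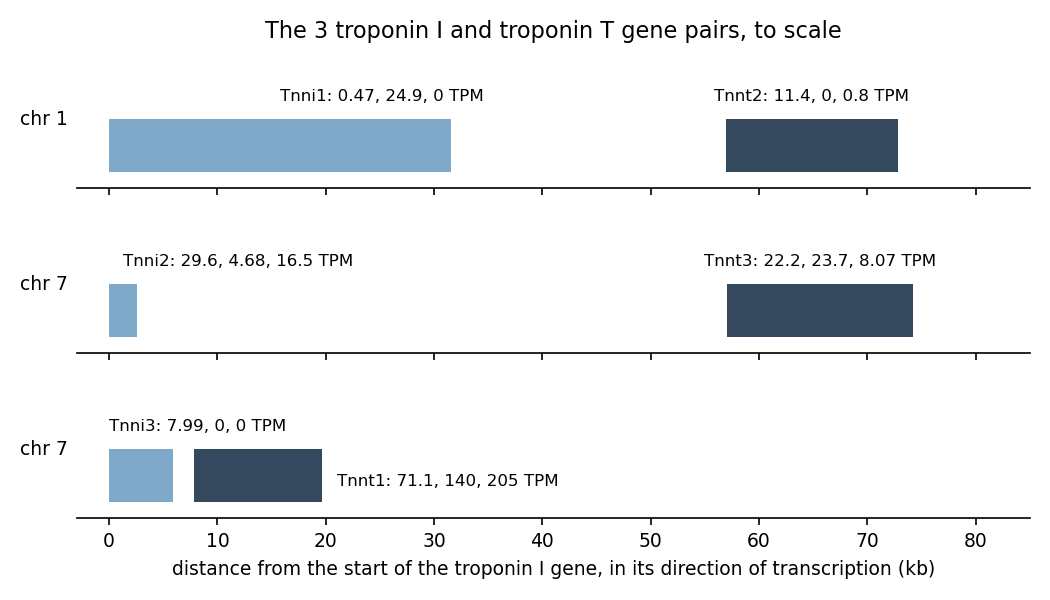
The 3 pairs of troponin I (light) and troponin T (dark) genes drawn to scale, as distance in kilobases from the start of the troponin I gene, with the TPM of replicates 1, 2 and 3 beside each gene. Tnni3 and Tnnt1, 1922 bases apart, have 7.99, 0 and 0 TPM and 71.1, 140 and 205 TPM.

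The start regions of the closest pair, and of both troponin C genes, are shown because the members of the closest pair differed in level in every library and the troponin C genes are the slow and fast forms of 1 subunit. Each runs from 250 bases before to 50 bases after the RefSeq transcript start (GRCm38.p6), 5′ to 3′ on the strand of the gene. Capitals mark letters of the E-box (CANNTG), the M-CAT element (CATTCC), the MEF2 and CArG motifs and TATAAA, searched on both strands. Tnnt1 is at chr7:4515926-4516225 and Tnni3 at chr7:4522479-4522778, both on the minus strand; Tnnc1 is at chr14:31208062-31208361 on the plus strand and Tnnc2 at chr2:164779685-164779984 on the minus strand.
Tnnt1: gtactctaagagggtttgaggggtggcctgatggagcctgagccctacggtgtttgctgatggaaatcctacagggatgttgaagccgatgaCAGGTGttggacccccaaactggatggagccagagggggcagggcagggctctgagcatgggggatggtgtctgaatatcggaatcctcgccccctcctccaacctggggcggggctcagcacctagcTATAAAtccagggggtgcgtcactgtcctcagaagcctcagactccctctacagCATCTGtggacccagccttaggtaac
Tnni3: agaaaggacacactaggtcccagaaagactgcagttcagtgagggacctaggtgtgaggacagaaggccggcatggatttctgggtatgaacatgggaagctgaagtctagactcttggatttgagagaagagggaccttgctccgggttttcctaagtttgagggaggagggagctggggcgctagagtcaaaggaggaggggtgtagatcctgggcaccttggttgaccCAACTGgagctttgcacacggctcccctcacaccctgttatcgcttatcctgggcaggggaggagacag
Tnnc1: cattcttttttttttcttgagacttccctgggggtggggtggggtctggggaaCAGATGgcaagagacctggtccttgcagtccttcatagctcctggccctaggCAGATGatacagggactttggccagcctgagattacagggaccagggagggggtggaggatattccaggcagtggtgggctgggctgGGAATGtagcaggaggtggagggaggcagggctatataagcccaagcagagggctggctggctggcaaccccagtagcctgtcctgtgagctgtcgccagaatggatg
Tnnc2: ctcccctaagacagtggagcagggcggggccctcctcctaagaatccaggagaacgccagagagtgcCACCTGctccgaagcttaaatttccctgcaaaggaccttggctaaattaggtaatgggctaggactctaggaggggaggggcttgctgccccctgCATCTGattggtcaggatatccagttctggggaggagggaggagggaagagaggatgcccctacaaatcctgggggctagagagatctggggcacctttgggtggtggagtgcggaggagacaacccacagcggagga

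Of these windows, that of Tnnt1 held TATAAA, and it held 2 E-boxes. Those of Tnni3, Tnnc1 and Tnnc2 held 1, 2 and 2 E-boxes, and that of Tnnc1 also held 1 M-CAT element. Over 32851 start regions of the same length, 13.6% held TATAAA, 72.3% an E-box and 14.7% an M-CAT element, and 3.19% and 1.63% held a MEF2 and a CArG motif. No MEF2 or CArG motif was found in the 8 start regions of the 6 members with an entry (Tnnt1, Tnnt2, Tnni1, Tnni3, Tnnc1 and Tnnc2). These are letter matches within 300 bases and say nothing of binding.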

How the data were processed

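Per the labels, RNA of the sorted cells was taken up with the Picopure kit for libraries of Illumina's standard kind. Build mm10 and the tools CASAVA 1.8, Bowtie 0.12.9 and RSEM 1.2.3 are named in the submitters' processing notes, without roles. How RNA was selected, the strand setting and the annotation counted are not stated there. The authors deposited TPM, renormalised without mitochondrial genes per the file name, with 1 column per library; a level is thus a share of the measured transcripts. The 12822 genes above 0 somewhere were tested on log2(TPM + 0.1) against 1 TPM (limma 3.58.1, R 4.3.3, variance trend, two-sided, Benjamini-Hochberg over all genes tested, threshold 0.05); the pseudocount shrinks the folds of genes near 0. Paralogue ratios were tested by exact sign-flip permutation. In the table, 27 symbols had turned into dates, none of them a member. The limma step was first run on simulated data with normal noise, as a check of the procedure, and no call of a member rests on that check. Positions and transcripts are from GENCODE M21 (GRCm38, the assembly of mm10), and start regions from RefSeq. The genes named are all members, the highest 3 of each list of muscle genes, the nearest genes on each side, the most alike profiles, Pax7, Myod1 and Myog. Overlapping genes and the fibre markers Acta1, Myh2, Ckm, Myh7, Myl2, Myl3 and Casq2 were added with values known. So were the highest marker of each cell type, the endothelial markers, Hbb-bs and Hbb-bt. Members and lists were chosen with earlier results of these data known. Alternatives were other pseudocounts, filters, scaling, thresholds, no variance trend and leaving out each library.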

Additional observations from a re-analysis of the deposited data

How the results depend on the processing

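The number of members above 1 TPM stayed at 4 under each alternative except leaving out a library, where it was 4 to 5, the fifth being Tnnc1 without replicate 2; at a threshold of 5 TPM it was also 4. The calls of Tnnt1, Tnnt3, Tnni2 and Tnnc2 were kept under all 10 alternatives. Without a variance trend their limma adjusted p was 0.00107, 0.00507, 0.0169 and 0.0208, in that order. The call of Tnni2 against 5 TPM was close to the limit (limma adjusted p = 0.0492). All these alternatives used limma, which draws on the spread of other genes, so they do not show what each gene's own spread would give. Members that were not decided could change the sign of their mean log2 level relative to the threshold tested, without a call except for Tnnc1 without replicate 2. Tnnt2, at -0.12, was at 0.49 with a pseudocount of 1 and between -1.87 and 1.55 when 1 library was left out; Tnni1, at 0.03, was at -1.04 with a pseudocount of 0.01, -2.18 against 5 TPM and between -2.20 and 1.78 when 1 library was left out. Tnni3, at -1.35, was at 0.056 with a pseudocount of 1, and could not be tested without replicate 1, since it is listed at 0 in the other two libraries. Tnnc1, at 1.89, was at -0.32 against 5 TPM and, against 1 TPM, stayed above it, between 0.40 and 4.56 when 1 library was left out. Of the 7 paralogue pairs, 4 kept 1 direction in all libraries, and 4 to 5 when 1 library was left out. Ratios of 2 pairs turned round when replicate 2 was left out: Tnni1 over Tnni3 (1.38) ranged from -1.91 to 3.98 and Tnnc1 over Tnnc2 (-2.35) from -4.62 to 0.15 over the libraries left out. Of these genes, Tnni1, Tnni3 and Tnnc1 are listed at 0 in a library, so their log2 values rest on the pseudocount. Over all genes, the number called below 1 TPM, 279, was 0 with any 1 library left out or with a mean of at least 0.1 TPM required, 3 with a pseudocount of 0.01, 451 with a pseudocount of 1, 478 without a variance trend and 8056 of 20308 with no filter. The number called above, 7796, lay between 7555 and 8008 under the alternatives that kept 1 TPM. No paired analysis was possible because the 3 libraries form 1 group. Depth is unknown, so it cannot be said what level a 0 leaves undetected.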
